A study of Rattus norvegicus with 5 samples.

Results

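The annexins are a family of cytosolic proteins that bind acidic phospholipids when calcium rises, and their transcripts were followed here in rat thyroid cells grown flat or as follicles. The members were the 10 annexin genes Anxa1, Anxa2, Anxa3, Anxa4, Anxa5, Anxa6, Anxa7, Anxa8, Anxa11 and Anxa13, found by matching the RefSeq accession of each array probe to the rat gene symbol, among 15154 genes measured. Each member was read by 1 probe. FRT cells are an epithelial line from the thyroid of Fischer rats. The 3D condition was FRT follicles grown in Matrigel, a basement membrane extract, and the 2D condition was confluent FRT monolayers, both taken on day 5 of culture and with no other treatment named. RNA was compared on 5 Agilent arrays with 2 colours, all on 1 slide. On 4 replicate arrays a separate 3D culture was labelled with Cy5 and set against a pool of 4 2D cultures in Cy3. The dyes were exchanged on 1 further array, the swapped array, with 2D pool RNA in Cy5 and pooled 3D RNA in Cy3. All samples come from 1 cell line.

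Annexins gather at the inner face of membranes, where they cluster lipids, join vesicles to each other or to the plasma membrane, and tie membranes to actin. Several work in pairs with small EF-hand proteins of the S100 type, and several are recruited to wounds of the plasma membrane. In polarised epithelia, annexins have been linked to the traffic that builds the apical surface and the lumen.

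Upstream sequence was available for 8 of the 10 members (all but Anxa6 and Anxa13) as a window of 300 bases, 250 before and 50 after the RefSeq start, in the rat build GRCr8. The windows below are those of the 2 members with the largest changes in opposite directions (Anxa2 and Anxa3), of Anxa1, the other member in which a TATA box was found, and of Anxa8, the member whose replicate arrays were least alike. They are written 5′ to 3′ on the gene's strand, with motif matches on either strand in capitals.
Anxa2 (chr8:78986002-78986301, plus strand): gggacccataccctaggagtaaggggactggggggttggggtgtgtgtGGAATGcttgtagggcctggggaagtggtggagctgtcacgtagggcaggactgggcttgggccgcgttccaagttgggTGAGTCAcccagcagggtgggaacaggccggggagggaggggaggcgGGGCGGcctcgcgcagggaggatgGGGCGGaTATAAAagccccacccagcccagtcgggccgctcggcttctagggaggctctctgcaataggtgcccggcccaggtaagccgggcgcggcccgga
Anxa3 (chr14:13085548-13085847, minus strand): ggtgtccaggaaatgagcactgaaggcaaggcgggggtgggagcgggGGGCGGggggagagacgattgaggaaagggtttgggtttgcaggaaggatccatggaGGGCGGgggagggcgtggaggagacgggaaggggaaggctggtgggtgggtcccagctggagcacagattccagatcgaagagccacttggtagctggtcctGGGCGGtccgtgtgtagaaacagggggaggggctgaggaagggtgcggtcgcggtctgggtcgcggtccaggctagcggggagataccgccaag
Anxa1 (chr1:227303683-227303982, minus strand): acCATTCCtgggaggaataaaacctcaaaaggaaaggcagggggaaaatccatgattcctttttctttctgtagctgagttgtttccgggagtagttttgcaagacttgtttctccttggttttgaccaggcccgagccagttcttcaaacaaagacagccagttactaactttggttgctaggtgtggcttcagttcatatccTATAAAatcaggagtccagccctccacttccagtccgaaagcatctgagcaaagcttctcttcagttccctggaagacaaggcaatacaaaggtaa
Anxa8 (chr16:9403137-9403436, plus strand): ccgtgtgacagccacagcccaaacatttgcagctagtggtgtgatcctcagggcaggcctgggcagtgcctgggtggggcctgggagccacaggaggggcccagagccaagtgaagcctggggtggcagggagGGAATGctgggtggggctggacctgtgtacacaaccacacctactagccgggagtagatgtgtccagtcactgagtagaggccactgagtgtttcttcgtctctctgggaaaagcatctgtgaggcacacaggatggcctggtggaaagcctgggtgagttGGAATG

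The motifs searched do not contain each other. They were searched on both strands of these windows and of all 33469 rat windows of the same length. TATAAA, the TATA box, was found in 2 of 8 members (Anxa1 and Anxa2), at -46 and -45 from the start, and in 14.2% of all windows. TGANTCA, the AP-1 motif, was found in 1 member, Anxa2, at -123, and in 7.33% of all windows. GGAATG, the TEAD motif, was found in 3 members (Anxa1, Anxa2 and Anxa8) and in 14.2% of all windows. GGGCGG, the GC box, was found in 6 of 8 members, that is, in all but Anxa1 and Anxa8, and in 33.1% of all windows. CCAAT was found in 2 members (Anxa4 and Anxa7) and in 37.5% of all windows. Anxa1 and Anxa8 had 3 CpG dinucleotides each in their windows, against a median of 7 over all windows and 27 in Anxa11. These matches describe the letters of the windows and nothing more.

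Of the 10 annexins, 7 passed an FDR of 0.01 between 3D and 2D (limma over 5 arrays, Benjamini-Hochberg over 15154 genes), beside 25.9% of all genes. The 5 that were higher in 3D were Anxa2, Anxa1, Anxa6, Anxa11 and Anxa4, beside 14.4% of all genes that were higher. The 2 that were lower were Anxa3 and Anxa5, beside 11.4% of all genes. Anxa7, Anxa8 and Anxa13 were not called. These shares of all genes include genes at background, which lowers them. Well above background in both conditions were 8185 of 15154 genes and 9 of the 10 members. With genes left out that were at background in both conditions, 7 members and 3974 genes passed. The 3974 were 26.2% of all 15154 genes. Their share of the fewer genes kept was larger and was not counted. The 25.9% therefore understates the share called among genes above background. The median log2 fold change of the 10 members was 0.27, and that of all genes was 0.0032. With the scanner software's own processed signals the split was 5 higher and 1 lower, beside 18.7% of all genes called. With each array's ratios only centred on their median, 0 members passed and 7 had an unadjusted p under 0.05, beside 0 of 15154 genes that passed in limma.

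**Figure D1:**
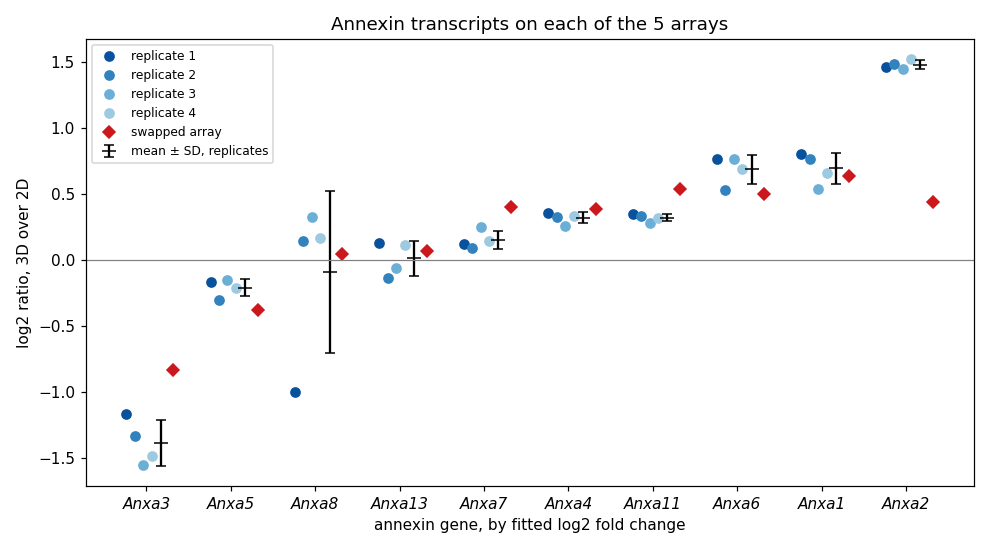
The log2 ratio of 3D over 2D (vertical axis) is plotted for each annexin (horizontal axis, from the lowest to the highest fitted change), with 1 circle per replicate array, a bar for the mean and SD of the 4 replicates, and a diamond for the swapped array turned to the same direction. Anxa2 lies near 1.48 on the replicate arrays with its diamond at 0.44, Anxa3 lies below 0 on all 5 arrays, and Anxa8 has replicate 1 at -1.0 apart from the other points.

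Ratios below are log2 of 3D over 2D, so that 1 is a doubling, and SDs are over the 4 replicate arrays. A ratio is an average over all cells of a culture, so that fewer cells of a kind and less RNA in each cell cannot be told apart. The arrays compare separate 3D cultures with 1 common 2D pool, and the spread between 2D cultures does not enter the test.

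Anxa2 forms a complex with S100a10 that links membranes to actin and has been assigned a part in apical transport. Its log2 ratio was 1.47, 1.49, 1.45 and 1.52 in replicates 1 to 4, and 0.44 with the dyes swapped. All 5 values were above 0, and the replicates, at 1.48 ± 0.03 (SD, n = 4), lay closer together than those of most other members, while the swapped array lay 1.01 below the lowest of them. The fitted log2 fold change over 5 arrays was 1.27 ± 0.14 (SE), or 2.42-fold, with a limma adjusted p of 8.96e-05. As a fold this was 2.79 in the mean of the replicates but 1.35 with the dyes swapped, so that after loess its direction was shared and its size was not. With median centring in place of loess the replicates read 2.24 to 2.48 and the swapped array -0.92.

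The signals of Anxa2 show where the arrays parted. Before background correction the median spot signal in Cy5 was 58256 to 72752 for the 3D cultures and 48710 for the 2D pool on the swapped array. In Cy3 it was 7998 to 10921 for the 2D pool and 19486 for the 3D pool. Both dyes were therefore brighter with 3D than with 2D RNA, but by unequal amounts. On the normalised log2 scale, 3D exceeded 2D by 0.69 between arrays within Cy5 and by 1.23 within Cy3. No Anxa2 spot was marked as saturated or as an outlier.

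A model with a term for the dye gave Anxa2 a log2 fold change of 0.96 ± 0.04 (SE), or 1.94-fold, with a limma adjusted p of 4.05e-07, and a dye effect of 0.52 ± 0.04 (SE, log2 Cy5 over Cy3) with a limma adjusted p of 0.00158. It was the only member with a dye effect at an FDR of 0.01, beside 1.9% of all genes, and its dye effect ranked 19 of 15154 by size. With 1 swapped array, a dye effect cannot be told apart from anything else particular to that array. The dye term fits that array exactly, so the SEs and p-values of this model rest on the spread of the replicates, as moderated by limma. They do not measure how a swapped array would vary. The size of the dye effect was 0.52 to 0.53 without any 1 replicate, but the call was lost without replicate 2 (limma adjusted p = 0.010, with 1 gene called among 15154), with a normexp offset of 0 (0.51) and with the software's processed signals (0.40). In the authors' own table of ratios the dye effect of Anxa2 was smaller, at 0.40. There the replicates read 1.32 to 1.36 and the swapped array 0.55. The RefSeq table lists pseudogenes of Anxa2 and of Anxa7, and how far they share signal with these probes was not tested.

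Anxa1, a protein regulated by glucocorticoids that acts on formyl peptide receptors outside the cell, had log2 ratios of 0.81, 0.77, 0.54 and 0.66 in replicates 1 to 4 and 0.63 with the dyes swapped. The swapped array lay inside the range of the replicates (0.69 ± 0.12, SD, n = 4). Over the 5 arrays the fitted log2 fold change was 0.68 ± 0.05 (SE), or 1.60-fold, with a limma adjusted p of 4.63e-06.

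Anxa6, which carries a doubled annexin core and binds cholesterol-rich membranes, had log2 ratios of 0.76, 0.53, 0.76 and 0.69 on the replicate arrays (0.69 ± 0.11, SD, n = 4) and 0.50 on the swapped array. Replicate 2 and the swapped array were the lowest. The fitted log2 fold change was 0.65 ± 0.05 (SE), or 1.57-fold, with a limma adjusted p of 1.02e-05. Anxa1 and Anxa6 had similar fitted changes, and their values overlapped on the 5 arrays.

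Anxa11, which binds Pdcd6 and S100a6 and tethers RNA granules to lysosomes, had log2 ratios of 0.35, 0.33, 0.28 and 0.32 on the replicate arrays (0.32 ± 0.03, SD, n = 4) and 0.54 on the swapped array. The swapped array was the highest of the 5. Over the 5 arrays the fitted log2 fold change was 0.36 ± 0.05 (SE), or 1.29-fold, with a limma adjusted p of 0.000218.

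Anxa4, an epithelial annexin that self-associates on membranes, had log2 ratios of 0.36, 0.33, 0.26 and 0.34 on the replicate arrays (0.32 ± 0.04, SD, n = 4) and 0.38 on the swapped array. Its fitted log2 fold change was 0.33 ± 0.04 (SE), or 1.26-fold, with a limma adjusted p of 0.000119. The ratios of Anxa4 and Anxa11 overlapped on the replicate arrays. Both passed no longer with a normexp offset of 0, at limma adjusted p = 0.0124 and 0.0155.

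Anxa3, found in neutrophil granules and in many epithelia, was the member with the largest fall. Its log2 ratio was -1.17, -1.33, -1.56 and -1.49 on the replicate arrays (-1.39 ± 0.17, SD, n = 4) and -0.84 on the swapped array. All 5 values were below 0, and the swapped array was the nearest to 0, by 0.33 beyond replicate 1. The fitted log2 fold change was -1.28 ± 0.09 (SE), a level 2.42-fold lower in 3D, with a limma adjusted p of 5.37e-06. With a dye term it was -1.11 ± 0.07 (SE), and the dye effect of -0.28 did not pass (limma adjusted p = 0.0429). By size of change Anxa3 ranked 165 and Anxa2 ranked 167 of 15154 genes, in opposite directions.

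Anxa5, which binds exposed phosphatidylserine and is used to mark dying cells, had log2 ratios of -0.17, -0.30, -0.15 and -0.21 on the replicate arrays (-0.21 ± 0.07, SD, n = 4) and -0.38 on the swapped array. All 5 values were below 0. Over the 5 arrays the fitted log2 fold change was -0.24 ± 0.05 (SE), a level 1.18-fold lower in 3D, with a limma adjusted p of 0.00249. This call was lost without replicate 2 (-0.23, limma adjusted p = 0.0151) and without replicate 4 (-0.25, limma adjusted p = 0.0107), and with 2 other ways of correcting the background. With median centring its fitted direction turned, to 0.22, in the model without a dye term. In that setting the replicates read 0.51 to 0.80 and the swapped array -1.57. The dye effect there was 1.12 (log2 Cy5 over Cy3), and 4 of the 5 arrays held 3D in Cy5.

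Anxa7, known for promoting the fusion of secretory granules, had log2 ratios of 0.12, 0.09, 0.25 and 0.14 on the replicate arrays (0.15 ± 0.07, SD, n = 4) and 0.40 on the swapped array. All 5 values were above 0, and the swapped array was the highest. The fitted log2 fold change was 0.20 with a 95% interval from 0.08 to 0.32, and it did not pass an FDR of 0.01 (limma adjusted p = 0.0150). With a dye term it was 0.28 and passed (limma adjusted p = 0.00119), which brought the members called to 8 of 10, beside 26.0% of all genes in that model.

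Anxa8, an annexin of squamous and other epithelia that has been placed on late endosomes, read differently on 1 replicate array. Each 3D culture was read on 1 array, so that a culture, its labelling and its array cannot be told apart. Its log2 ratio was -1.0 in replicate 1, 0.14 in replicate 2, 0.32 in replicate 3 and 0.17 in replicate 4, and 0.04 on the swapped array. Replicate 1 lay 1.15 below the next replicate, and the other 3 replicates and the 3D pool were above 0. Over the 5 arrays the fitted log2 fold change was -0.07 with a 95% interval from -0.43 to 0.30 (limma adjusted p = 0.809), and without replicate 1 it was 0.17 (limma adjusted p = 0.0565).

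Anxa8 was printed in 10 spots per array, the other members in 2. On the array of replicate 1 its 10 spots lay between -1.11 and -0.90, and every spot on the other 4 arrays was at -0.02 or higher. The SD among the 10 spots was 0.04 to 0.07 on each array, and the spots of an array share the same labelled RNA. The normalised log2 level of the 2D pool was 10.3 to 10.4 on all 5 arrays, while that of 3D was 9.38 for replicate 1 and 10.35 to 10.66 on the others. Mixing the 4 3D cultures in equal parts would give a log2 ratio of -0.01, and the swapped array, which holds their pool, gave 0.04. For Anxa2 and Anxa3 the same reckoning lay far from the swapped array, as given below. Why replicate 1 differed was not tested. Among all genes, 5.27% had 1 replicate array apart from the other 3 by the same measure (Dixon's ratio above its critical value), and Anxa8 was the only member that did.

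**Figure D2:**
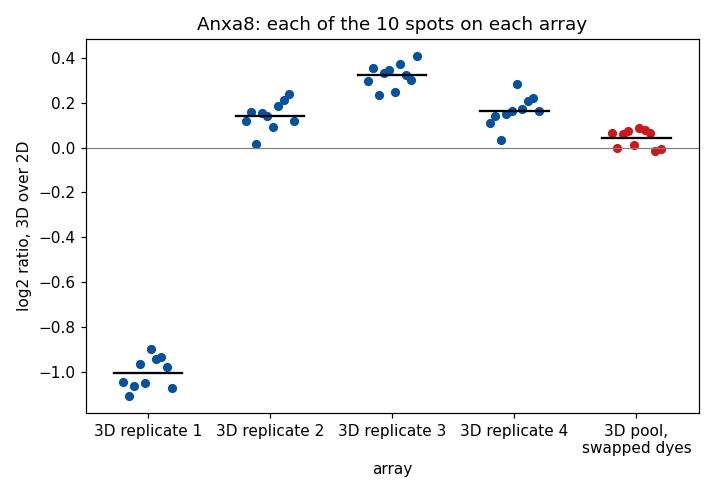
Each point is the log2 ratio of 3D over 2D (vertical axis) at 1 of the 10 Anxa8 spots on 1 of the 5 arrays (horizontal axis), with a line at the mean of the array's spots. The spots of replicate 1 lie between -1.11 and -0.90 and those of the other arrays between -0.02 and 0.41.

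Anxa13, an annexin of intestinal and renal epithelium tied to apical delivery, was not well above background on any of the 5 arrays in either condition. Its Cy5 spot signal was 58.5 to 62 against a local background of 51.8 to 55.3, and its Cy3 signal was 29 to 37 against 19 to 22. No fold is given for it, and its points in the plots are those of a probe at background. The other 9 members were well above background on all 5 arrays in both conditions.

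The replicate arrays and the swapped array were then compared gene by gene. All 8 members other than Anxa8 and Anxa13 had the same sign on all 5 arrays, 6 above 0 and 2 below. How many of all genes did so was not counted, so nothing particular to annexins can be read from it. The shared sign of the members rests on loess. With median centring in its place 1 member, Anxa3, kept 1 sign on all 5 arrays, while Anxa1, Anxa2, Anxa4, Anxa5, Anxa6, Anxa7 and Anxa11 were above 0 on the replicates and below 0 on the swapped array. The swapped array fell outside the range of the 4 replicates for 7 of 10 members, beside 62.7% of all genes. It was below that range for Anxa2, Anxa5 and Anxa6, above it for Anxa3, Anxa4, Anxa7 and Anxa11, and inside it for Anxa1, Anxa8 and Anxa13. The distance to the range was 1.01 for Anxa2, and for the other 6 it was at most 0.33. Some of these placements changed with the processing. In the authors' table Anxa6 fell inside, at 0.52 against replicates of 0.47 to 0.71. With the scanner software's processed signals Anxa5 fell inside, at -0.33 against replicates of -0.35 to -0.16. If the 3D pool had held the 4 cultures in equal parts, the swapped array would have read 1.48 for Anxa2 and -1.38 for Anxa3, where it read 0.44 and -0.84. Over all genes, the replicate arrays correlated with each other at r = 0.871 to 0.946 and with the swapped array at r = 0.734 to 0.765. These are correlations across genes, which are not independent, on arrays that share the 2D pool.

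**Figure D3:**
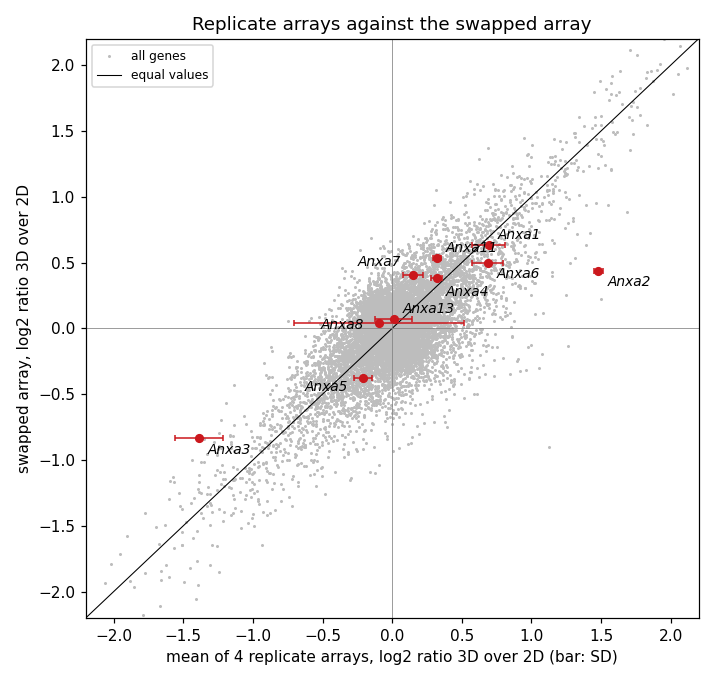
The log2 ratio of 3D over 2D on the swapped array (vertical axis) is plotted against the mean of the 4 replicate arrays (horizontal axis) for all genes in grey and the annexins in red with the SD of the replicates as a bar. Genes beyond the axis limits are not drawn. Anxa2 lies at 1.48 and 0.44, far below the line of equal values, and the other called members lie nearer to it.

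By the 5 ratios, the genes most like Anxa2 among 8173 other genes well above background in both conditions were Eml4, a microtubule-binding protein, Lbh, a transcription cofactor, and Abcc1, an export pump, at Euclidean distances of 0.29, 0.29 and 0.39. Lbh had ratios of 1.36, 1.62, 1.53 and 1.49 in replicates 1 to 4 and 0.22 with the dyes swapped. The genes most like Anxa3 were Errfi1, an inhibitor of the EGF receptor, Stmn1, a microtubule regulator, and Ndc80, a kinetochore protein, at distances of 0.26, 0.27 and 0.31. Errfi1 had ratios of -1.27, -1.36, -1.43 and -1.42 in replicates 1 to 4 and -1.02 with the dyes swapped.

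Genes that work with the annexins were read from 5 lists, 1 of them the annexins outside the members, 39 of 48 genes being measured. Of these, 12 were higher and 3 lower in 3D, or 38.5% called beside 25.9% of all genes, a share that includes genes at background. Of the 39, 28 were above background on at least 1 array. The median log2 fold change of the 39 was 0.05. Of the 10 EF-hand and S100 partners, 5 were higher and 1 was lower, beside 14.4% and 11.4% of all genes. Their median change was 0.27 on the log2 scale. The lower one was S100a10, the partner of Anxa2. Its log2 ratio was -0.12, -0.37, -0.26 and -0.26 in replicates 1 to 4 and -0.19 with the dyes swapped, all below 0 where all those of Anxa2 were above 0. For S100a10 the fit gave a log2 fold change of -0.24 ± 0.05 (SE, limma adjusted p = 0.00264).

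S100a6, a partner of Anxa11, had log2 ratios of 0.70, 1.23, 0.67 and 0.62 in replicates 1 to 4 and 1.00 with the dyes swapped, with a fitted log2 fold change of 0.84 ± 0.09 (SE, limma adjusted p = 5.00e-05). All 5 values were above 0 and replicate 2 was the highest. S100a11, a partner of Anxa1, had ratios of 0.48, 0.73, 0.91 and 0.80 in the replicates but -0.24 with the dyes swapped. It was not called in the model without a dye term (0.54, limma adjusted p = 0.0151) nor in the one with it (0.25, limma adjusted p = 0.0255), where its dye effect was 0.48 (limma adjusted p = 0.00700). Among the members, no such change of sign between replicate and swapped arrays was seen in a gene with all replicates on 1 side of 0.

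Sri, or sorcin, a partner of Anxa7, was higher at 0.28 ± 0.04 (SE, limma adjusted p = 0.000556). Pdcd6, a partner of Anxa11 and Anxa7, stood at -0.09 ± 0.05 (SE) and was not called (limma adjusted p = 0.255). Its ratios ran from -0.19 to -0.09 in the replicates and reached 0.12 with the dyes swapped. The other 3 genes called on this list, named after their values were seen, were S100a4, S100a1 and Gca. Gca stood at 0.26 and S100a4 at 1.68. S100a1 was well above background on 5 of 5 arrays in 3D but on 1 of 5 in 2D, so that its fitted 0.83 is of uncertain size. S100a4 lay between 1.57 and 2.02 on the replicate arrays and at 1.48 on the swapped array, so its change exceeded that of any annexin on this log2 scale.

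Of the 14 measured genes of the list of other partners, receptors and clients, 3 were higher and 1 was lower. That is 28.6% called, near the 25.9% of all genes, and the median change was 0.09 on the log2 scale. Among the higher ones were Nedd4, a ubiquitin ligase (0.41), and Egfr, the EGF receptor (0.23). The lower one was Src, a tyrosine kinase that phosphorylates Anxa2 (-0.55, with values from -0.70 to -0.53 on the replicates and -0.27 on the swapped array). Ahnak, a scaffold bound by the Anxa2 complex, was not matched to a probe.

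Of 8 measured genes of plasma membrane repair, 3 were higher by limma (37.5%, beside 14.4% of all genes), with 4 at an unadjusted p under 0.05 and above 0. At either threshold 0 were lower, beside 11.4% of all genes lower at an FDR of 0.01. A list of 8 genes is too short to set 0 against that share. The higher ones were Capn1, a calcium-dependent protease, at 1.15 ± 0.04 (SE), Pdcd6ip, which binds Pdcd6 and the ESCRT machinery, at 0.63 ± 0.05 (SE), and Vps4b, an ESCRT ATPase, at 0.31 ± 0.06 (SE). Capn1 lay between 1.06 and 1.25 on the replicates and at 1.08 on the swapped array. The median log2 fold change of the list was 0.11.

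Copines also bind phospholipids through calcium. Of 6 measured, Cpne3 was higher at 0.95 ± 0.04 (SE), with 0.94 to 1.04 on the replicates and 0.81 on the swapped array, and Cpne9 was lower at -0.41 ± 0.06 (SE), while the median of the list was -0.04. The share called was 33.3%, beside 25.9% of all genes. Of the annexins outside the 10 members, Anxa10 was not well above background on any array, and Anxa9 was not matched to a probe.

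**Figure D4:**
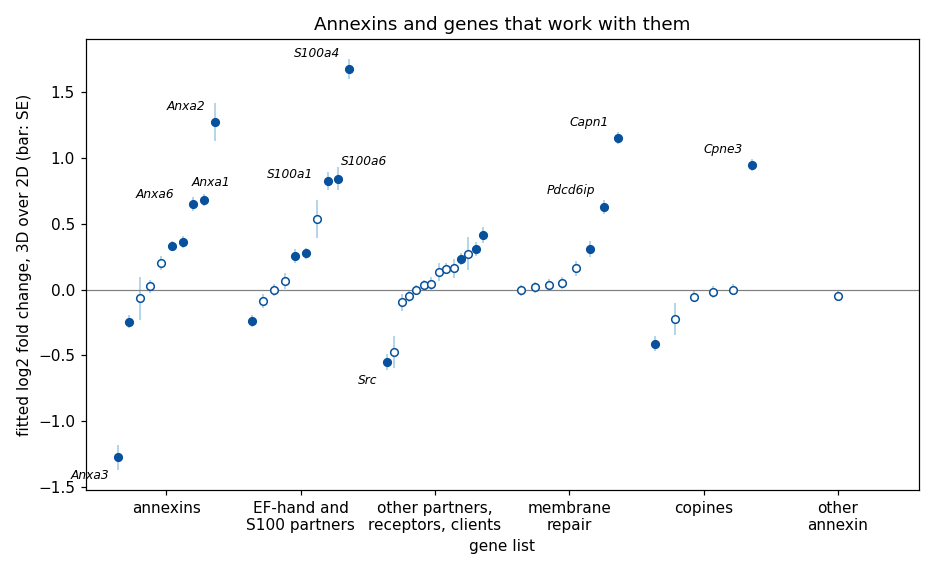
Fitted log2 fold changes of 3D over 2D (vertical axis, bar: SE) are shown for each measured gene of the annexins and of the 5 partner lists (horizontal axis), filled where the FDR was below 0.01 and named where a called change exceeded 0.5 in size. Called genes lie on both sides of 0 in the annexins, the S100 partners, the other partners and the copines.

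The cells carried the markers of an epithelium, with 7 of 7 epithelial markers above background. Of 8 thyroid markers, Pax8, Foxe1 and Hhex were above background on at least 4 of 5 arrays in each condition, while Tg, Tshr, Nkx2-1 and Slc5a5 were not above it on any array. Pax8 was higher in 3D at 0.71, with 0.65 to 1.02 on the replicates and 0.05 on the swapped array, and at 0.46 in the model with a dye term, where its dye effect was 0.41 (limma adjusted p = 0.00876). Above background on at least 1 array were 4 of 8 fibroblast markers, of which Pdgfra was higher at 0.55, 1 of 5 endothelial markers and 1 of 6 leukocyte markers. The collagen genes Col1a1 (0.06) and Col3a1 (0.38) were above background and not called, and Dcn, Lum, Thy1 and Pdgfrb were not above it on any array. The replicates of Col3a1 were unlike, at 1.09, 0.78, -0.07 and -0.10 in replicates 1 to 4, with 0.17 on the swapped array. The leukocyte marker, Lyz2, was above background on 1 of 5 arrays in 2D and on none in 3D. It passed as lower (limma adjusted p = 0.00929), and no size is given for it. The part of any other cell type in the annexin values was not tested.

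Fitted changes of the 9 members above background under 16 alternative settings are shown in the plot of members by processing. Settings that changed only probe choice, dim genes or the threshold used the same ratios and left each member's fitted change as reported. They are counted among the 16, so the counts overstate how often a call was put to a separate trial. Anxa1, Anxa2, Anxa3 and Anxa6 passed in 15 of the 16 and lost the call with median centring alone. Anxa4 and Anxa11 passed in 14, Anxa5 in 11 and Anxa7 in 2, while Anxa8 did not pass in any of them. Across them the fitted log2 fold change of Anxa2 ranged from 0.96 to 1.70 and that of Anxa3 from -1.45 to -0.78.

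**Figure D5:**
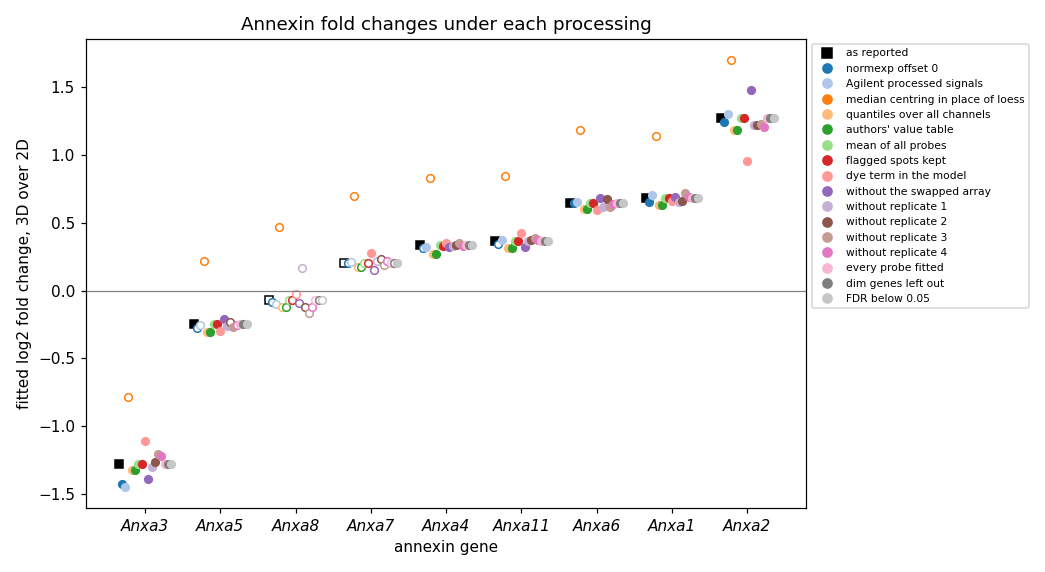
The fitted log2 fold change of 3D over 2D (vertical axis) is shown for each annexin above background (horizontal axis) as reported (black square) and under each alternative (coloured circles), filled where it passed the FDR threshold. Median centring lies above the other settings for all 9 members and passes for none, and Anxa2 has its lowest value, 0.96, with the dye term.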

How the data were processed

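The spot and background intensities were deposited as median pixel values read by Agilent Feature Extraction 10.7.3.1 per the file headers, without normalization. The software's processed intensities and its log10 ratios (Cy5 over Cy3) were deposited too, and the processed intensities served as an alternative. The authors' table holds log2 ratios per spot made with limma by normexp, loess and quantiles. Each of its 5 columns was found to give 3D over 2D when set against the scanner signals (r = 0.995 to 0.998). Column medians ran from -0.0064 to 0.0011.

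With limma 3.58.1 (R 4.3.3), ratios were computed here from median signals by normexp with an offset of 50, loess with controls and flagged spots at weight 0, and quantiles on average intensities. The offset compresses changes of dim genes. Flagged spots (1.12% to 1.6% per array) were dropped, spots of a probe were averaged, and the brightest probe stood for a gene. The arrays were designed on the build rn4. Symbols came from a RefSeq table of GRCr8 by accession, and 17998 of 30367 probes had one. The limma model had 1 coefficient over 5 arrays, the swapped array turned and given equal weight although its RNA is pooled from those cultures. Benjamini-Hochberg adjustment ran over 15154 genes, with a threshold FDR of 0.01. A second model added a dye term, which fits the swapped array exactly, so that its SEs and p-values hold no spread between swapped arrays. The fits were tested on simulated data. The number of arrays limits the precision.

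The members and the lists (EF-hand and S100 partners, other partners, receptors and clients, plasma membrane repair, copines, other annexins, and thyroid, epithelial, fibroblast, endothelial and leukocyte markers) were chosen with earlier results of these data known. Genes named were all members, 6 direct partners, called genes of the other lists (up to 3 per direction), Anxa9 and Anxa10, and the 3 genes nearest to each of the 2 members with the largest change among those well above background. Alternatives covered background, normalization, flagged spots, probe choice, dim genes, the dye, the swapped array, each replicate and the threshold. RefSeq upstream windows of GRCr8 were matched by symbol. Some listed genes are counted in their lists and not reported here by name.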

Additional observations from a re-analysis of the deposited data

Results flagged for a closer look

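In 4 of the genes named in the text 1 of the 4 replicate arrays stood apart from the other 3 by Dixon's ratio, which chance alone gives in about 1 in 20 groups and which 5.27% of all genes showed here. Anxa8 had a log2 ratio of -1.0 in replicate 1, where the other replicates lay between 0.14 and 0.32. S100a6 had 1.23 in replicate 2, where the others lay between 0.62 and 0.70. Gca, a gene of the EF-hand list named after its values were seen, had 0.50 in replicate 1, where the others lay between 0.17 and 0.22. Cdkn2a, also named after its values were seen, had -0.57 in replicate 1, where the others lay between 0.82 and 1.11.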

How the results depend on the processing

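Of the 10 annexins, 7 passed as reported (beside 25.9% of all genes), 4 with a normexp offset of 0 (beside 14.7%), and 0 with median centring in place of loess. Without any 1 replicate 6 to 7 passed, beside 19.8% to 21.8% of all genes. With median centring 0 of 15154 genes passed in limma, where 7 members and 3096 genes had an unadjusted p under 0.05. A dye effect was called in 1 member as reported and in 0 with an offset of 0 or with Agilent's processed signals, where 0 of 15154 genes passed and 2 members had an unadjusted p under 0.05. It was called in 10 members with median centring (beside 83.6% of all genes) and in 2 at an FDR of 0.05 (beside 9.32%). Without any 1 replicate it was called in 0 to 2 members (beside 0.0066% to 2.9%). The count was 0 without replicate 2, where 6 had an unadjusted p under 0.05, and 2 without replicate 1, Anxa3 being added. Of 39 partner genes, 15 were called as reported (38.5%, beside 25.9% of all genes) and 8 with an offset of 0 (20.5%, beside 14.7%). With processed signals 8 were called (20.5%, beside 18.7%). Median centring left 0 (13 at an unadjusted p under 0.05). Without any 1 replicate 10 to 13 were called (25.6% to 33.3%, beside 19.8% to 21.8%). With median centring the dye effect was 1.12 for Anxa5 and 0.76 for Anxa8, and 4 of the 5 arrays held 3D in Cy5. There the fitted log2 fold change, in the model without a dye term, changed sign for Anxa5 (0.22) and Anxa8 (0.47). Without any 1 replicate it ranged from -0.16 to 0.17 for Anxa8, the highest without replicate 1. No value is given for Anxa13, which was not above background. No paired analysis was possible because the 2D cultures were hybridised as 1 pool. The cause of these differences was not tested.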

Other observations

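Replicate 1 lay at least 1 below every other replicate on the log2 scale in 4 of 15154 genes, chosen after their values were seen, and all 4 were well above background in both conditions. Beside Anxa8 these were Epha1, an ephrin receptor, Cdkn2a, a cell cycle inhibitor, and Tap2, a peptide transporter of antigen presentation. The log2 ratio of Epha1 was -1.02 in replicate 1, 0.12, 0.49 and 0.28 in replicates 2 to 4 and 0.03 with the dyes swapped, which made it the gene nearest to Anxa8 over the 5 arrays (distance 0.21). Cdkn2a stood at -0.57 in replicate 1, between 0.82 and 1.11 in the others, and at 0.73 on the swapped array. Tap2 stood at -1.63 in replicate 1, between -0.49 and -0.09 in the others, and at -0.56 on the swapped array. Replicate 2 lay at least 1 above every other replicate in 2 genes, and replicate 4 lay at least 1 below in 1 gene. The remaining sides of the 4 replicates held 0 such genes.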
